A study of Mus musculus with 6 samples.

Results

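The genes described here are 10 genes of Leydig cell steroid hormone synthesis, taken by symbol from a count table of mouse testis that holds 50763 symbols. All 10 symbols were found, and all 10 passed the filter on low counts. Testes were collected at postnatal day 14 from 3 wild-type samples (WT) and 3 samples labelled sKO, in which Rif1 was deleted conditionally in germ cells before meiosis. The sources used here do not state the strain, the promoter behind the deletion or how many animals made up a sample. Poly(A) RNA was sequenced, and libraries held 15941672 to 18296594 counts. The comparison asks whether transcripts of the steroid-making cells of the interstitium differ when the deletion lies in germ cells.

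Leydig cells lie between the seminiferous tubules and make androgens in response to luteinizing hormone (LH). The hormone binds its receptor, cyclic AMP rises, and cholesterol is carried into mitochondria by STAR, where CYP11A1 cuts its side chain to give pregnenolone. HSD3B enzymes, CYP17A1 and HSD17B3 then complete testosterone, while SRD5A1 and AKR1C14 turn androgens into reduced forms that are typical of immature Leydig cells. In the mouse testis a fetal population is replaced after birth by an adult one, in which Hsd3b6 and Hsd17b3 become prominent.

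Hsd3b1 and Hsd3b6 encode closely related enzymes and their coding sequences show what separates their reads. Both lie on chromosome 3 and both coding sequences are 1119 bases long. The first 120 coding bases are given from GENCODE M21 (GRCm38), with capitals at the 20 bases that differ between the pair.
Hsd3b1: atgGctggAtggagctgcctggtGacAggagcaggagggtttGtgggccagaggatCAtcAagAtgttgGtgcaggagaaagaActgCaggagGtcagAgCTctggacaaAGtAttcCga
Hsd3b6: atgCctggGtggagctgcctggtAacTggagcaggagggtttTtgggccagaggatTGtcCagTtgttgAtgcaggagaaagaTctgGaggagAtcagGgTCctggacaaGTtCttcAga
Over the whole coding alignment the pair was identical at 90% of the bases, and the longest identical run was 72 bases. Of all stretches of 50 bases in the Hsd3b1 transcript 2.1% also occurred in Hsd3b6. Hsd3b6 shared 13.5% of its stretches with Hsd3b2 and 12.5% with Hsd3b3, but Hsd3b2 and Hsd3b3 held at most 2 counts in any library.

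Hsd3b1 and Lhcgr had the closest profiles over the 6 libraries of all pairs of members, with a root mean square difference of 0.14 on the log2 scale. For this reason the 250 bases before their RefSeq start sites (GRCm38.p6) are shown, read along the gene's strand. Capitals mark TCAAGG, the left part of the binding site of the nuclear receptor NR5A1, or the same letters on the other strand.
Hsd3b1, chr3:98859795-98860044, minus strand: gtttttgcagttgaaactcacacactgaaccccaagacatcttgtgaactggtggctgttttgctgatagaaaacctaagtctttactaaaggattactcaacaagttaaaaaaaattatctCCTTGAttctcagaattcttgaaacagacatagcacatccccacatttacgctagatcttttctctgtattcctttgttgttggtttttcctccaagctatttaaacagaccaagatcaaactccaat
Lhcgr, chr17:88792015-88792264, minus strand: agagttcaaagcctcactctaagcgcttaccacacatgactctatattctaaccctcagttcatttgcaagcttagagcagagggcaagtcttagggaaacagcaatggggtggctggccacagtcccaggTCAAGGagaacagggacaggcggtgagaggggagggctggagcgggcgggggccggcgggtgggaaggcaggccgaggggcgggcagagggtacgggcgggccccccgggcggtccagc
The table of promoters matched 8 of the 10 members with 9 windows, Cyp11a1 having more than 1, and no window was matched for Star or Cyp17a1. TCAAGG stood in 3 of the 9 windows on either strand (Hsd3b1, Insl3 and Lhcgr) and in 12.5% of all 32851 promoter windows. The full site TCAAGGTCA was in 0 of the 9 and in 0.387% of all windows. The cyclic AMP response element TGACGTCA was in 0 of the 9 and in 1.55%. Such matches describe letters and are not evidence of binding.

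As a whole the steroid synthesis genes were not called different between the groups. Levels are given in CPM, counts scaled to the library total with TMM factors. The edgeR quasi-likelihood test called 0 of the 10 members at an adjusted p under 0.05, where 1.30% of the 18860 genes tested were called, 0.0318% higher and 1.27% lower. At an unadjusted p under 0.05 there were 2 members, both higher, against 13.6% of all genes in either direction, 5.06% higher and 8.54% lower. DESeq2 and limma-voom also called 0 members. Estimates were higher in sKO for 7 members and lower for 3, with a median log2 fold change of 0.15, beside 0.03 over all genes tested, of which 55.3% had a higher estimate. The estimates ran from -0.39 for Hsd3b6 to 1.83 for Cyp17a1. The groups did not overlap for 1 of the 10 members, Star, which was higher in sKO, while 20.2% of all genes tested showed no overlap, 9.58% higher and 10.7% lower. In whole testis RNA changes in Leydig cell number, in RNA per cell and in the RNA share of other cells cannot be told apart.

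**Figure D1:**
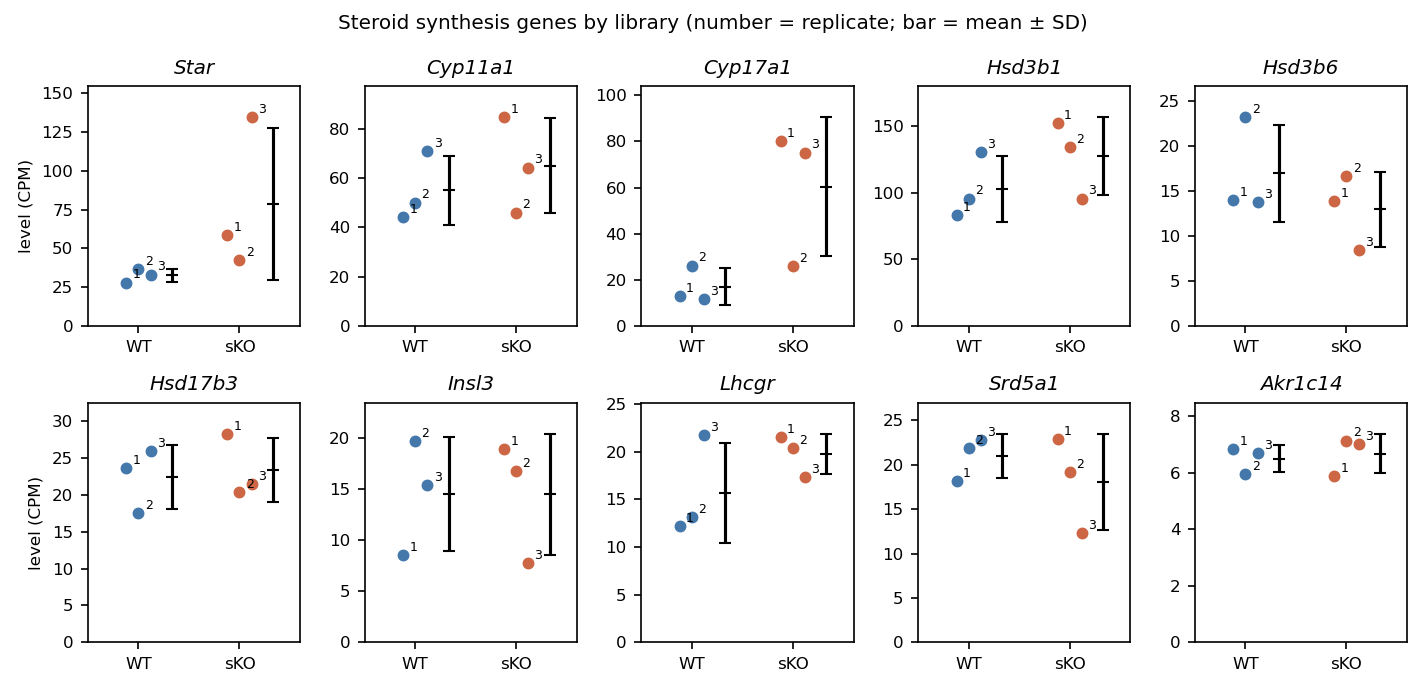
Level of each of the 10 genes (CPM, linear axis from 0) in every library; points are libraries with their replicate number, and bars are the mean ± SD of the 3 libraries of a group. Star is the gene without overlap, with sKO library 3 at 134 CPM, and Cyp17a1 stands at 80.2 and 75.2 CPM in sKO libraries 1 and 3.

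The libraries were not alike in other respects, which touches what follows. Rif1, the deleted gene, stood at 83.7 to 129 CPM in WT and at 42.0 to 49.2 CPM in sKO (edgeR adjusted p = 0.0145), without overlap. A list of 8 epididymis markers summed to 147 CPM in sKO library 1 and to between 1.37 and 16.4 CPM in the other 5. Only 3 of the 8 (Crisp1, Cdh16 and Adam7) carried the sum of sKO library 1. The remaining markers were absent or nearly so there: Lcn8, Lcn9 and Spint4 had 0 counts, and Adam28 and Rnase10 had 1 count each. The adrenal cortex, which also makes steroids, was checked with 6 markers. Their sum was 6.79 to 8.78 CPM in WT and 7.21 to 9.73 CPM in sKO, and Cyp21a1, Cyp11b1 and Cyp11b2 each stayed at or below 1.87 CPM. Akr1b7 was the largest part of the sum, at 3.36 to 4.04 CPM in WT and 3.27 to 5.47 CPM in sKO. Cyp11b1 did not pass the filter and went the other way, with 17, 12 and 9 counts in WT and 1, 2 and 9 counts in sKO (replicates 1, 2 and 3). Whether the source of the Crisp1, Cdh16 and Adam7 transcripts had a part in the results was not tested beyond leaving out sKO library 1. Nothing in the labels ties the samples of a group to separate animals, and p-values therefore reflect sample-to-sample spread that may be technical.

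The first steps of the pathway were examined in the order of the reaction. Star, the carrier of cholesterol into mitochondria on chromosome 8, stood at 27.9, 36.6 and 33.1 CPM in WT (values are given in the order of replicates 1, 2 and 3 throughout). In sKO it stood at 58.3, 42.6 and 134 CPM. Every sKO library lay above every WT library, and sKO library 3 lay far above the other two of its group. WT averaged 32.6 ± 4.38 CPM and sKO 78.4 ± 49.1 CPM (SD, n = 3 each), a ratio of 2.41. The log2 fold change was 1.27 (SE 0.46, edgeR adjusted p = 0.319), and a two-sided exact permutation test returned p = 0.1, the smallest that 3 against 3 libraries allow. Without sKO library 3 the log2 fold change was 0.60 (edgeR adjusted p = 0.0709), and all 12 alternative settings kept the higher direction.

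Cyp11a1, the side-chain cleavage enzyme, showed no such separation. It held 44.1, 50.1 and 70.9 CPM in WT and 84.7, 46.0 and 64.3 CPM in sKO. The groups overlapped, with sKO library 2 near the lower WT libraries. The log2 fold change was 0.24 (SE 0.24, edgeR adjusted p = 0.714), and it was -0.013 without sKO library 1.

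Cyp17a1, the hydroxylase and lyase that opens the androgen branch, had the largest estimate of the 10. Its levels were 13.0, 26.2 and 11.8 CPM in WT and 80.2, 25.9 and 75.2 CPM in sKO. Libraries 1 and 3 of sKO were thus high, whereas sKO library 2 lay just below WT library 2. WT averaged 17.0 ± 7.99 CPM and sKO 60.4 ± 30.1 CPM (SD, n = 3 each), a ratio of 3.56. The log2 fold change was 1.83 (SE 0.56, edgeR adjusted p = 0.249), and a two-sided exact permutation test returned p = 0.2. Leaving out each library in turn gave log2 fold changes of 1.56 to 2.29 with edgeR adjusted p between 0.138 and 0.589, and DESeq2 gave an adjusted p of 0.0580. Without sKO library 1, where Crisp1, Cdh16 and Adam7 were highest, the log2 fold change of Cyp17a1 was 1.56 and that of Star was 1.43.

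**Figure D2:**
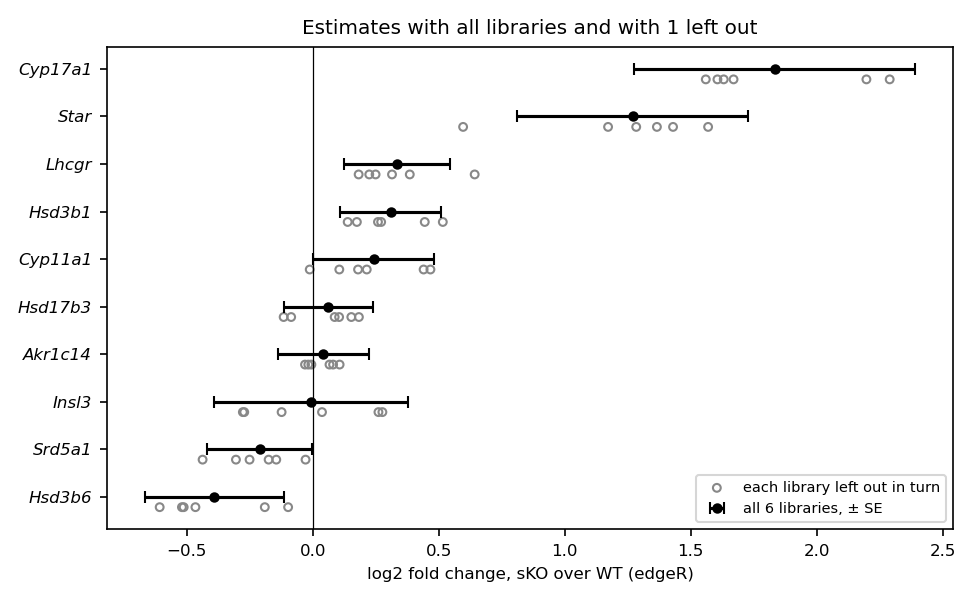
Log2 fold change of sKO over WT from edgeR for each gene; filled points with bars are the estimate with all 6 libraries ± SE, and open points are the 6 estimates with 1 library left out. Cyp17a1 (1.56 to 2.29) and Star (0.60 to 1.57) stay above 0, and the open points of Cyp11a1, Hsd17b3, Insl3 and Akr1c14 fall on both sides of 0.

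The HSD3B step is shared by a pair of members. Hsd3b1, the isoform of both fetal and adult Leydig cells, held 82.8, 95.4 and 130.3 CPM in WT and 152, 134 and 95.4 CPM in sKO. The groups overlapped, as sKO library 3 matched WT library 2. Its log2 fold change was 0.31 (SE 0.20, edgeR adjusted p = 0.552). It was 0.14 without sKO library 1, 0.17 without WT library 1, 0.52 without WT library 3 and 0.011 without both libraries numbered 1. Hsd3b6, the isoform of adult Leydig cells, held 14.0, 23.2 and 13.7 CPM in WT and 13.9, 16.7 and 8.41 CPM in sKO. Here sKO library 3 was the lowest and WT library 2 the highest, and the other 4 lay between 13.7 and 16.7 CPM. The log2 fold change was -0.39 (SE 0.27, edgeR adjusted p = 0.577). It kept its sign in all 12 alternative settings but ranged from -0.61 to -0.10.

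Hsd17b3, which makes testosterone from androstenedione, held 23.6, 17.5 and 25.9 CPM in WT and 28.2, 20.3 and 21.4 CPM in sKO. The lowest value was in WT library 2 and the highest in sKO library 1, the other 4 lay between 20.3 and 25.9 CPM, and the log2 fold change was 0.06 (SE 0.18, edgeR adjusted p = 0.914). Srd5a1, the 5-alpha-reductase, held 18.1, 21.9 and 22.8 CPM in WT and 22.9, 19.1 and 12.3 CPM in sKO. Its lowest value was again in sKO library 3, while sKO library 1 matched the upper WT libraries (log2 fold change -0.21, SE 0.21, edgeR adjusted p = 0.707). Srd5a1 had an estimate of -0.029 without sKO library 3, -0.44 without sKO library 1 and -0.53 without both libraries numbered 1. Akr1c14, a 3-alpha-hydroxysteroid dehydrogenase, was the steadiest member, at 6.84, 5.95 and 6.72 CPM in WT and 5.89, 7.14 and 7.04 CPM in sKO. Its highest library was 1.21-fold above its lowest, and 87.2% of all genes tested had a wider range. In the annotation 16.4% of the Srd5a1 exon bases and 7.22% of those of Akr1c14 are shared with an overlapping gene model, so a part of their reads cannot be assigned with certainty.

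Lhcgr, the LH receptor on chromosome 17, held 12.2, 13.1 and 21.7 CPM in WT and 21.5, 20.3 and 17.4 CPM in sKO. The sKO libraries lay close together inside the WT range, above the 2 lower WT libraries. The log2 fold change was 0.33 (SE 0.21, edgeR adjusted p = 0.535), and it was 0.64 without WT library 3 (edgeR adjusted p = 0.101). It was 0.18 without WT library 1, 0.22 without WT library 2 and 0.10 without both libraries numbered 1. Insl3, the peptide hormone of Leydig cells that acts on testis descent, held 8.58, 19.7 and 15.4 CPM in WT and 18.9, 16.8 and 7.75 CPM in sKO. Each group had 1 low library, WT library 1 and sKO library 3, and the means were 14.5 ± 5.59 and 14.5 ± 5.93 CPM (SD, n = 3 each). Its log2 fold change was -0.01 (SE 0.38, edgeR adjusted p = 0.995) and changed sign between alternatives. Of the Insl3 exon bases 64.8% are also annotated in Jak3 on the same strand, so the Insl3 counts depend on how shared reads were counted. Jak3 itself held 5.33 to 7.59 CPM in WT and 5.88 to 8.29 CPM in sKO.

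**Figure D3:**
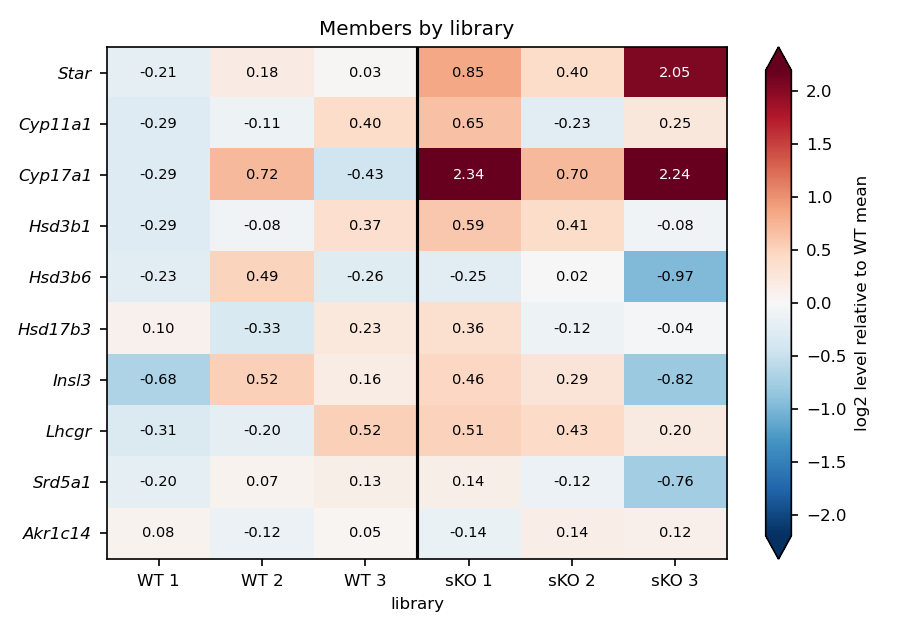
Log2 level of each gene (rows) in each library (columns), relative to the mean of the 3 WT libraries; red is higher, blue is lower and the vertical line separates WT from sKO. In sKO library 3 Star is at 2.05 and Cyp17a1 at 2.24, while Hsd3b6 is at -0.97, Insl3 at -0.82 and Srd5a1 at -0.76.

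The members did not move as a block within a library. WT library 1 held the lowest level of 4 members (Star, Cyp11a1, Hsd3b1 and Lhcgr) and the highest of 0. sKO library 1 held the highest level of 5 members (Cyp11a1, Cyp17a1, Hsd3b1, Hsd17b3 and Srd5a1) and the lowest of Akr1c14. sKO library 3 combined the highest level of Star with the lowest of Hsd3b6, Insl3 and Srd5a1. The median member stood at -0.26, 0.00 and 0.14 (log2, relative to the WT mean) across the WT libraries and at 0.48, 0.21 and 0.04 across the sKO libraries. The 10 members summed to 251, 310 and 352 CPM in WT and to 487, 349 and 444 CPM in sKO. The sums overlapped, with sKO library 2 just below WT library 3.

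Per kilobase of annotated exon, and as the reads were counted, Hsd3b1 had the highest mean level in WT, at 55.4 ± 13.2 CPM per kb (SD, n = 3), followed by Insl3 at 23.3 ± 8.98 and Hsd17b3 at 16.1 ± 3.13 CPM per kb. Insl3 and Hsd17b3 did not differ beyond their SDs. The place of Insl3 in this order is uncertain, because 64.8% of its exon bases are shared with Jak3 and its level per kb is understated if shared reads were left uncounted. Cyp11a1 (11.5 ± 2.93 CPM per kb), Hsd3b6 (9.43 ± 2.99), Star (7.91 ± 1.07), Srd5a1 (7.19 ± 0.851) and Cyp17a1 (6.12 ± 2.89) followed, and no neighbours in that order were separated by more than their spread. Below Cyp17a1, by more than the sum of the SDs, Lhcgr and Akr1c14 were lowest and did not differ beyond their spread, at 2.05 ± 0.686 and 2.01 ± 0.149 CPM per kb. In sKO, Hsd3b1 was again highest at 68.7 ± 15.7 CPM per kb. Cyp17a1 and Star came next after Insl3 (23.2 ± 9.51 CPM per kb), at 21.8 ± 10.9 and 19.1 ± 11.9 CPM per kb. Insl3, Cyp17a1, Star and Hsd17b3 (16.8 ± 3.08 CPM per kb) were not separated by more than their spread in sKO. Lengths were unions of all annotated exons in GENCODE M21, so genes with long alternative ends such as Lhcgr are understated.

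Ratios between members of 1 library do not depend on the scaling between libraries, and 5 were compared. The ratio of Cyp17a1 to Cyp11a1 counts was 0.294, 0.522 and 0.166 in WT and 0.948, 0.562 and 1.17 in sKO. The groups did not overlap, although sKO library 2 was close to WT library 2. The difference was 1.54 on the log2 scale, with p = 0.1 by a two-sided exact permutation test, the smallest possible, and an adjusted p of 0.5 over the 5 ratios by the same permutation test. Leaving out single libraries gave 1.12 to 1.95.

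The ratio of Hsd3b6 to Hsd3b1 was 0.169, 0.243 and 0.105 in WT and 0.0911, 0.124 and 0.0881 in sKO. Only WT library 3 lay inside the sKO range, and the difference was -0.71 on the log2 scale (exact permutation p = 0.2, adjusted p = 0.5). Without WT library 2 it was -0.42, and without WT library 3 it was -1.02. The ratio of Insl3 to Star was 0.307, 0.537 and 0.464 in WT and 0.324, 0.394 and 0.0577 in sKO. The difference of -1.13 rested on sKO library 3 and was -0.25 without it (exact permutation p = 0.3 with all libraries, adjusted p = 0.5). Hsd17b3 to Srd5a1 and Akr1c14 to Srd5a1 differed by 0.32 and 0.29, with exact permutation p = 0.5 and p = 0.7 (adjusted p = 0.625 and 0.7), and the latter was -0.0078 without sKO library 3. The difference for Hsd17b3 to Srd5a1 was 0.11 without either WT library 2 or sKO library 3. With 3 libraries a group none of the 5 ratios could have reached 0.05.

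**Figure D4:**
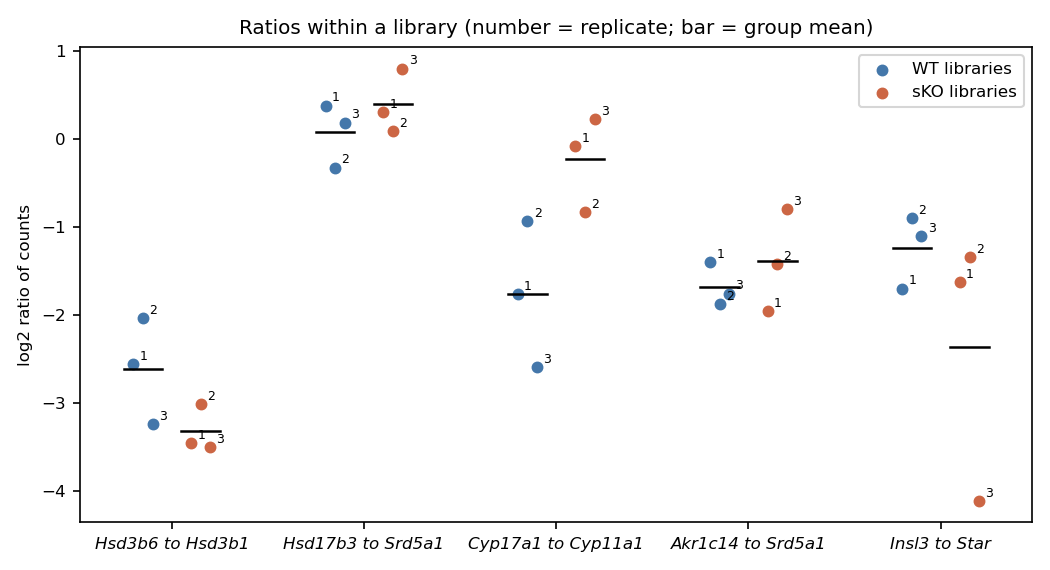
Log2 ratio of the counts of 2 genes within each library, for the 5 pairs compared; points are libraries with their replicate number and bars are group means. The ratio of Cyp17a1 to Cyp11a1 is the pair without overlap, and the low point of Insl3 to Star is sKO library 3.

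Other genes of the pathway were read from 8 lists with 78 entries, of which 66 were tested. Of these 58 had higher and 8 lower estimates in sKO, where 55.3% of all genes tested had a higher one, with a median log2 fold change of 0.15. edgeR called 0 higher and 1 lower, beside 0.0318% of all genes tested called higher and 1.27% called lower. The groups did not overlap for 8 of the 66, beside 20.2% of all genes tested. The lean to higher estimates was not particular to this pathway. Estimates were higher for 11 of 12 Sertoli, 7 of 7 myoid, 7 of 8 macrophage, 7 of 7 endothelial and 6 of 6 stromal markers. Median log2 fold changes of these lists were 0.24, 0.29, 0.31, 0.25 and 0.10 in that order. Of 4 tested adipose markers 0 had a higher estimate. Of 5 electron donors of the steroidogenic P450 enzymes 0 were called (edgeR, 0 at an unadjusted p under 0.05). Fdx1, the ferredoxin that serves CYP11A1, held 21.9 to 26.3 CPM in WT and 22.6 to 38.4 CPM in sKO. Its reductase Fdxr had a log2 fold change of 0.19, the P450 reductase Por 0.12 and Cyb5a, which favours the lyase step of CYP17A1, 0.25. Among 7 genes of cholesterol uptake and delivery edgeR called 0 and 0 passed an unadjusted p of 0.05, with log2 fold changes of 0.12 for the lipoprotein receptor Scarb1 and 0.09 for the outer membrane protein Tspo.

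Among 14 tested genes of 25 other steroid-converting enzymes edgeR called 1 lower, beside 1.27% of all genes tested. The called gene was Cyp19a1, the aromatase that turns androgens into oestrogens. It fell from 45, 34 and 13 counts in WT to 2, 2 and 7 counts in sKO. No sKO library reached the lowest WT library. The log2 fold change was -3.03 (edgeR adjusted p = 0.0393), from a mean of 1.78 CPM in WT to 0.209 CPM in sKO. Among other settings, the call was lost without WT library 1 (edgeR adjusted p = 0.102), WT library 2 (0.159), sKO library 1 (0.123), sKO library 2 (0.188) or both libraries numbered 1 (0.127), and with limma-voom (0.0730), while the estimate stayed between -3.84 and -2.44 in all 12 settings. The 10 pachytene spermatocyte markers moved in the same direction: they summed to 1211, 852 and 569 CPM in WT and to 191, 223 and 344 CPM in sKO, with 4 of 8 tested members called lower (Acr, Tekt1, Ybx2 and Nme5), beside 1.27% of all genes tested. Their part in the fall of Cyp19a1 was not tested. Sult1e1, the oestrogen sulfotransferase, held at most 0.300 CPM and was not tested.

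Transcription regulators of steroidogenesis had 0 of 10 called by edgeR and 4 higher at an unadjusted p under 0.05, beside 5.06% of all genes tested. The groups did not overlap for 3, all of them higher, beside 9.58% of all genes tested higher and 20.2% in either direction. These shares were not particular to the regulators. Of 12 Sertoli markers 5 were higher at an unadjusted p under 0.05 by edgeR, and the groups did not overlap for 5. Nr5a1, the nuclear receptor that drives most of these enzymes, stood at 158 to 205 CPM in WT and at 189 to 233 CPM in sKO (log2 fold change 0.18, edgeR adjusted p = 0.561). Nr0b1, its repressor, stood at 68.0 to 85.1 CPM in WT and at 89.3 to 91.8 CPM in sKO (edgeR adjusted p = 0.321). Gata4 had a log2 fold change of 0.30 (edgeR adjusted p = 0.254). Nr4a1, an immediate early nuclear receptor that LH induces in Leydig cells, held 18.7, 16.1 and 14.8 CPM in WT and 22.3, 24.8 and 58.9 CPM in sKO. As for Star, all sKO libraries lay above all WT libraries and sKO library 3 was highest (log2 fold change 1.10, edgeR adjusted p = 0.257).

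Genes of cyclic AMP signalling, of trophic signals and of the Leydig lineage had 0 called members by edgeR among 5, 8 and 9 tested. At an unadjusted p under 0.05 by edgeR 0, 1 and 1 were higher, beside 5.06% of all genes tested. Median log2 fold changes were 0.06, 0.13 and 0.25. The prolactin receptor Prlr had a log2 fold change of 0.04 and Pdgfra, a receptor of Leydig precursors, 0.18. Of 8 genes of the androgen response 0 were called by edgeR and the median was 0.18. In the same test 1 of the 8 was higher at an unadjusted p under 0.05, again beside 5.06% of all genes tested. Rhox5, an androgen-regulated homeobox gene of Sertoli cells, stood at 37.2 to 38.6 CPM in WT and at 31.9 to 44.4 CPM in sKO (log2 fold change 0.06).

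Markers of other somatic cells are given beside these values because they moved with the libraries. The median of 12 Sertoli markers, relative to the WT mean, was -0.06, 0.02 and 0.01 in WT and 0.18, 0.28 and 0.12 in sKO. The 7 myoid markers had medians of 0.64, 0.30 and -0.03 in sKO, the 8 macrophage markers 0.51, 0.53 and -0.04, the 7 endothelial markers 0.41, 0.25 and -0.07, and the 6 stromal markers 0.41, 0.19 and -0.44. In WT library 1, which held the lowest level of 4 steroid synthesis genes, these lists stood at -0.20, -0.46, -0.23 and -0.26 in the same order, and in WT libraries 2 and 3 they lay between -0.02 and 0.25. Thus sKO library 1, where 5 steroid synthesis genes peaked, was also high for myoid cells, macrophages, endothelium and stroma. sKO library 3 was low for stroma and close to the WT mean for myoid cells, macrophages and endothelium. In that library Star and Cyp17a1 were above the WT mean, while Hsd3b6, Insl3 and Srd5a1 were below it. Set against Sertoli markers within each library, the mean member level was -2.71, -2.44 and -2.38 (log2) in WT and -2.09, -2.56 and -2.49 in sKO. The difference was 0.13 (two-sided exact permutation p = 0.6), and -0.017 without sKO library 1. The part of these cell types in the members' values was not tested.

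**Figure D5:**
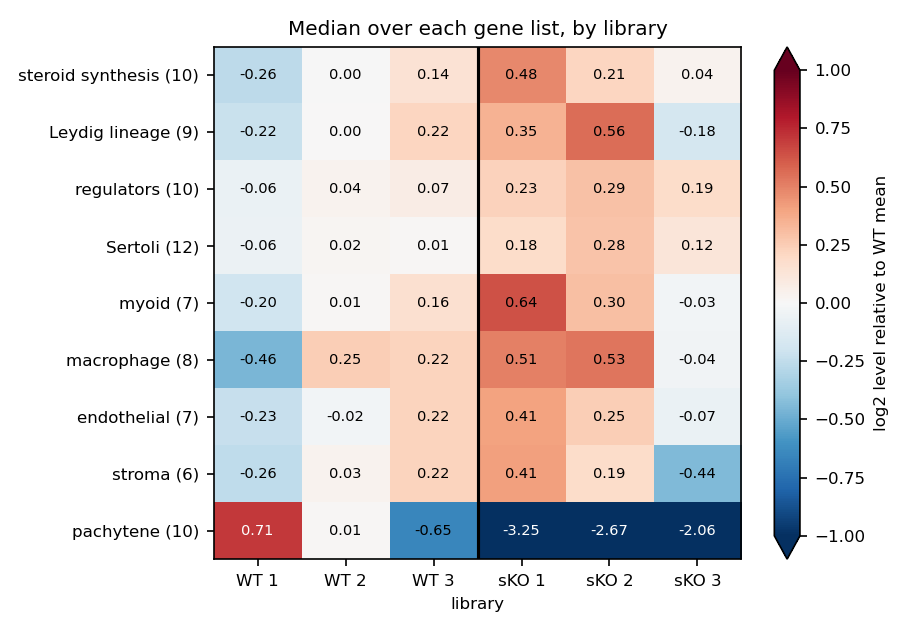
Median log2 level over each gene list (number of genes in brackets) in each library, relative to the mean of the 3 WT libraries; the colour scale ends at -1 and 1, and the printed numbers give the values beyond it. The steroid synthesis row runs from -0.26 in WT library 1 to 0.48 in sKO library 1, and the pachytene row falls to -3.25 in sKO library 1.

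Genes with profiles most like a member were sought for the 4 members whose highest library was over 2-fold above the lowest, a range that 24.6% of all genes tested also had. The search covered 16988 genes that averaged 1 CPM or more and ranked them by the root mean square difference of centred log2 levels over the 6 libraries. Closest to Star were Nlrc5 (0.14), a regulator of MHC class I genes, Nr4a1 (0.28) and Irf7 (0.28), an interferon regulatory factor. Nlrc5 held 1.46 to 2.30 CPM in WT and 3.72, 3.03 and 8.74 CPM in sKO. Cyp17a1 had no close neighbour by this measure, since the nearest genes, Slc7a11, Rtp4 and Fgfr4, differed by 0.48 to 0.51. Levels were centred but not scaled, so the measure also depends on the size of the range, which was 6.83-fold for Cyp17a1. Closest to Insl3 were Dclk1 (0.08), Ecrg4 (0.10) and Mirg (0.13), and closest to Hsd3b6 were Adgrg3 (0.13), Gm35144 (0.15) and Wdr5b (0.15). The likeness is a description of 6 libraries.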

How the data were processed

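The authors deposited raw read counts per gene symbol, with a column for each sample. The submitters' processing notes name featureCounts, HISAT2 and Trim Galore as tools and mm39 as the build. The sources used here do not state versions, annotation, strand setting or the handling of shared reads. The columns named con and scKO were read as WT and sKO and matched by replicate number.

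Counts were analysed with edgeR 4.0.16 (filterByExpr, TMM, robust quasi-likelihood F test, no covariates) in R 4.3.3, with Benjamini-Hochberg adjustment over 18860 genes. DESeq2 1.42.0 and limma-voom (limma 3.58.1) were alternatives, as were DESeq2 size factors, no filter, a replicate block and leaving out libraries. SE came from the F statistic. 1 count equals 0.055 to 0.0622 CPM, and members held 98 to 2537 counts per library. Ratios used a prior count of 0.5. Within groups libraries differed by more than sampling error (chi-square over its degrees of freedom, 4.81 to 22.7). Scripts were tested on simulated data.

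Sequences came from RefSeq (GRCm38.p6) and GENCODE M21 (GRCm38), and no coordinates of mm39 are given. The members, lists and tests were chosen with earlier results of these data known. The naming rule took the 10 members, Rif1, 16 pathway genes (1 of them is not reported here), any list gene called, and the 3 genes most like each member whose range exceeded 2-fold. Crisp1, Cdh16, Jak3 and other genes named were chosen after their values were seen.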

Additional observations from a re-analysis of the deposited data

How the results depend on the processing

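No member was called in any of the 12 alternatives by edgeR, DESeq2 or limma-voom. The member median log2 fold change of 0.15 ranged from 0.047 to 0.32 with single libraries left out and was -0.029 without both libraries numbered 1. Star, Cyp17a1, Hsd3b1, Hsd3b6, Lhcgr and Srd5a1 kept their direction throughout. Reversals were Insl3 (0.28, 0.04 and 0.26 without WT library 2, WT library 3 or sKO library 3, range -0.28 to 0.28), Akr1c14 (without WT library 2, sKO library 2 or sKO library 3, range -0.031 to 0.11), Hsd17b3 (-0.09 and -0.12 without WT library 2 or sKO library 1, range -0.12 to 0.18, and -0.069 without both libraries numbered 1) and Cyp11a1 (without sKO library 1, range -0.013 to 0.47, and -0.14 without both libraries numbered 1). The member level relative to Sertoli markers ranged from -0.017 to 0.22 and Akr1c14 to Srd5a1 from -0.0078 to 0.57 with single libraries left out. Genes called lower and higher numbered 240 and 6 with all libraries, 0 to 624 and 0 to 31 with each library left out, 721 and 56 by DESeq2, 0 and 0 by limma-voom (1598 and 932 at an unadjusted p under 0.05), 992 and 154 without the filter and 155 and 5 without both libraries numbered 1. The replicate block left 21 lower and 0 higher (605 higher and 1324 lower at an unadjusted p under 0.05) and called no member; Cyp19a1 had an adjusted p of 0.149 there in edgeR. The labels do not state whether same-numbered samples were paired. Same-numbered libraries correlated at -0.40, 0.17 and -0.32 in their deviations from the group means. With 3 libraries a group these correlations cannot decide whether the samples were paired. The cause of these shifts was not tested. Low counts limit Cyp19a1, with 2 to 45 counts per library.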

Other observations

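Among the other Leydig lineage genes, Mgarp, a mitochondrial protein of steroid-making cells, had the smallest p, and it was chosen here after its values were seen. It held 69.4, 85.8 and 87.2 CPM in WT and 108.8, 119.6 and 91.9 CPM in sKO, so that every sKO library lay above every WT library (log2 fold change 0.40, edgeR adjusted p = 0.164). Ptgds, a prostaglandin D synthase also made in the epididymis, held 9.67 CPM in sKO library 1 against 1.63 to 2.85 CPM in the other 5. Cldn3, an androgen-responsive claudin, held 10.8 CPM in sKO library 1 against 1.85 to 3.83 CPM elsewhere. Both peaked in the library where Crisp1, Cdh16 and Adam7 were highest, and the part of the source of those transcripts in these values was not tested. Sult1e1 and Hsd3b6 mark adult Leydig cells, and Sult1e1 had 1, 3 and 3 counts in WT and 5, 1 and 0 counts in sKO.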
